A study of Mus musculus with 6 samples.

Results

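Pebp1 encodes phosphatidylethanolamine-binding protein 1, and it is described here as 1 of the 18301 genes measured by RNA sequencing in mouse embryonic fibroblasts. It was taken by its symbol from the table of expression values, together with its level in the second control library, which stood apart from most other genes. The study asked how ethanolamine (Etn) and the CDP-ethanolamine pathway act on fibroblasts during reprogramming, and whether Pebp1 takes part. All 6 libraries came from fibroblasts of the strain CBA/CaJ X C57BL/6J on day 2 of reprogramming in iCD1, a chemically defined medium, transfected with a short hairpin RNA (shRNA).

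The shPebp1 library carried the hairpin against Pebp1. The shEtnk1/2 library carried hairpins against the ethanolamine kinases Etnk1 and Etnk2, and the shPcyt2 library one against Pcyt2, the next enzyme of the pathway. The Etn-deprived library carried shLuc, a hairpin against luciferase, which mouse cells lack, in medium without Etn. The reference was shLuc in medium with Etn, in 2 libraries labelled replicates 1 and 2. Each other group had 1 library. A library with shPebp1 but without Etn was not analysed here. Whether both libraries labelled shLuc came from cultures of their own is not stated, and p-values here measure no more than the spread between these samples. The labels give neither the number of hairpins nor the share of cells that took them up.

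The protein is small and cytosolic and binds phosphatidylethanolamine, the membrane lipid that the CDP-ethanolamine pathway makes. It is also known to restrain the kinase cascade that activates MEK and ERK. Phosphorylation by protein kinase C lets it bind the receptor kinase GRK2. It also binds kinases that activate NF-kB and the lipoxygenase ALOX15, which oxidises phosphatidylethanolamine in ferroptosis.

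Pebp1 lies on chromosome 5 of the mouse, at chr5:117282651-117287564 on the minus strand in build mm10, and the table treats it as a transcript of 1182 nt. In the GENCODE annotation of the same assembly its transcript has 4 exons and an open reading frame of 564 bases, 187 codons and a stop. Processed pseudogenes, intronless copies of the messenger RNA inserted elsewhere in the genome, hold nearly the same letters. Gm10819 on chromosome 19 matched 559 of 561 coding bases (99.6%) and Gm9824 on chromosome 10 matched 555 of 561 (98.9%). Pbp2 on chromosome 6, the nearest coding relative, matched 459 of 554 aligned bases (82.9%). Coding bases 256 to 375 are shown because the pseudogenes together depart from Pebp1 there at least as often as in any other stretch of this length. Capitals mark bases that differ from Pebp1.
Pebp1: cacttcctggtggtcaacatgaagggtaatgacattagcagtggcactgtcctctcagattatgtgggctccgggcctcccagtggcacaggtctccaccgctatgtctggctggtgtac
Gm10819: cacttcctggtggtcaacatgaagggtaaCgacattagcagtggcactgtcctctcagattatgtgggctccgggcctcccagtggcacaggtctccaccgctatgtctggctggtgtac
Gm9824: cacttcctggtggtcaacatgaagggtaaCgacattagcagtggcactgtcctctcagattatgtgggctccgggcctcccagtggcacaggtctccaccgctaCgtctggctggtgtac
Pbp2: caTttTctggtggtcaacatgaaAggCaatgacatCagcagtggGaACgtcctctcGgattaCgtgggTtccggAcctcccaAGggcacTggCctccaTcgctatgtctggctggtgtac
Over these 120 bases Gm10819 differed at 1 base, Gm9824 at 2 and Pbp2 at 17. The GENCODE transcript of Pebp1, 1240 nt long, holds 1141 stretches of 100 bases (the length of a read). Of these, 262 (23.0%) occurred unchanged in Gm10819 and 119 (10.4%) in Gm9824, and none in Pbp2. Stretches that match a copy apart from a few bases were not counted. All stretches that either pseudogene held came to the same 262. How reads that fit several places were counted is not given in the sources used here, and the pseudogenes were not analysed here.

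Pebp1 RNA was at about 40% of the shLuc replicate 1 level in 2 libraries, shPebp1 and the library labelled shLuc replicate 2. It had 99.6 RPKM (reads scaled to transcript length and library total) in shPebp1, with a 95% Poisson interval of 95.5 to 103.9 from 2193 reads. The shEtnk1/2 library had 229.1 RPKM (223.0 to 235.3), shPcyt2 263.4 RPKM (256.8 to 270.1) and the Etn-deprived library 210.5 RPKM (204.4 to 216.6). The libraries labelled shLuc had 100.7 RPKM (96.7 to 104.9, from 2343 reads) in the library labelled replicate 2 and 250.4 RPKM (244.1 to 256.9, from 5969 reads) in replicate 1. The levels therefore fell into a low pair and a high set of 4, with no value between 104.9 and 204.4 RPKM even at the ends of the intervals. These intervals cover counting error only, and they would be wider if both reads of a pair were counted. In bulk RNA, fewer cells that express a gene and less of its RNA per cell cannot be told apart.

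**Figure D1:**
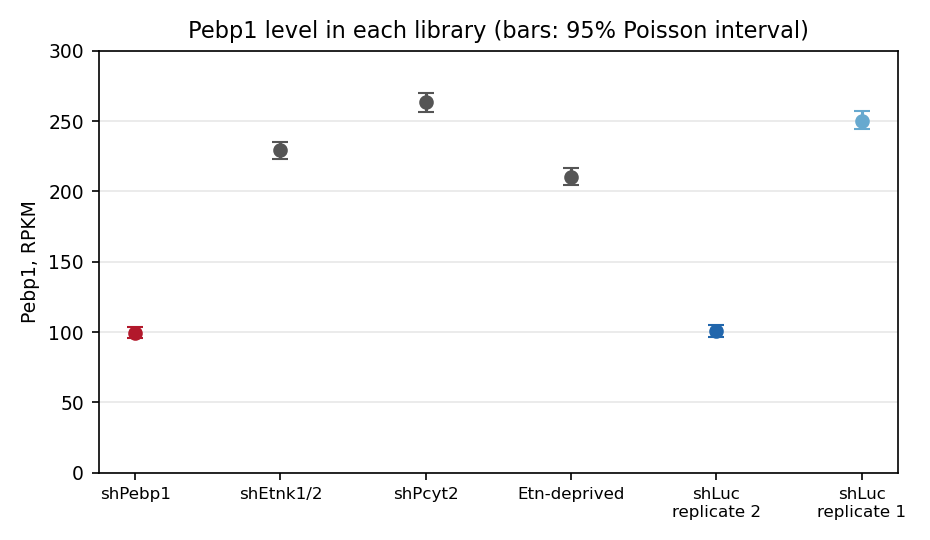
Pebp1 level (RPKM, vertical axis from 0) in each of the 6 libraries, with points for single libraries and bars for 95% Poisson intervals. shPebp1 (99.6) and the library labelled shLuc replicate 2 (100.7) lie far below the other 4 libraries, which span 210.5 to 263.4.

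Relative to shLuc replicate 1, Pebp1 stood at 39.8% in shPebp1, 91.5% in shEtnk1/2, 105.2% in shPcyt2, 84.0% in the Etn-deprived library and 40.2% in the library labelled shLuc replicate 2. The high set spanned a ratio of 1.25 from its lowest to its highest library, while its lowest was 2.11 times the shPebp1 level and 2.09 times that of the library labelled shLuc replicate 2. In all 6 libraries Pebp1 was among the more abundant transcripts. It ranked 595th in shPebp1, 217th in shEtnk1/2, 196th in shPcyt2, 227th in the Etn-deprived library, 589th in the library labelled shLuc replicate 2 and 201st in shLuc replicate 1.

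In falling order the levels ran shPcyt2, shLuc replicate 1, shEtnk1/2, Etn-deprived, the library labelled shLuc replicate 2 and shPebp1. The ratio of shPebp1 to the library labelled shLuc replicate 2 was 0.989 (0.933 to 1.05), so these neighbours did not differ beyond counting error. Within the high set the neighbouring ratios were 1.05 (1.02 to 1.09) for shPcyt2 over shLuc replicate 1, 0.915 (0.882 to 0.949) for shEtnk1/2 over shLuc replicate 1 and 1.09 (1.05 to 1.13) for shEtnk1/2 over Etn-deprived. Those gaps exceeded counting error if every count is independent, which is not known because reads and pairs could not be told apart. Each gap was smaller than the difference between the libraries labelled shLuc.

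For comparison with shLuc, values were taken as log2(RPKM + 1) and tested by limma over the 11939 genes whose mean reached 1 RPKM, where a gene was called at a Benjamini-Hochberg adjusted p of at most 0.05. Pebp1 was far apart in the libraries labelled shLuc, and why was not tested. The sources used here do not settle whether each of them carried shLuc, so each value against the shLuc mean rests on the labels. Against the mean of both libraries labelled shLuc, Pebp1 differed by -0.67 in shPebp1 (SE 1.04, limma, adjusted p = 0.98). The difference was 0.52 in shEtnk1/2 (adjusted p = 0.873), 0.73 in shPcyt2 (adjusted p = 0.969) and 0.40 in the Etn-deprived library (adjusted p = 0.897), with the same SE. Pebp1 thus passed the test in none of the 4 comparisons, the libraries labelled shLuc being further apart than any treated library was from their mean. Pebp1 was chosen for its level in the library labelled shLuc replicate 2, which sets this spread. Nothing is therefore read from the p-values of Pebp1 in these comparisons. Limma called 12 genes in shPebp1 (0.101%), 413 in shEtnk1/2 (3.46%), 13 in shPcyt2 (0.109%) and 454 in the Etn-deprived library (3.8%). Most of those called in shPebp1 were small RNAs with few reads, at means from 2.33 (Mir1964) to 35.8 (Snora81). With either library labelled shLuc left out, the 12 calls in shPebp1 became 0.

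These values turned on which library labelled shLuc was used. For shPebp1, fits with either one left out took their spread from the shEtnk1/2, shPcyt2 and Etn-deprived libraries together. These differ in treatment, so that spread holds treatment effects too. Against shLuc replicate 1 alone, Pebp1 differed by -1.32 in shPebp1 (SE 0.18), -0.13 in shEtnk1/2, 0.07 in shPcyt2 and -0.25 in the Etn-deprived library. Against the library labelled shLuc replicate 2 alone, the differences were -0.02 in shPebp1, 1.18 in shEtnk1/2, 1.38 in shPcyt2 and 1.06 in the Etn-deprived library, given without a test because Pebp1 was chosen for its level in that library. The sign in shEtnk1/2 and in the Etn-deprived library therefore reversed between the libraries labelled shLuc. Set against all 5 libraries without shPebp1 together, Pebp1 differed by -0.999 in shPebp1 (SE 0.57, limma, adjusted p = 0.998). Without the library labelled shLuc replicate 2 that difference was -1.24 (SE 0.13), and without shLuc replicate 1 it was -0.92 (SE 0.64). Pebp1 was chosen for its level in the library labelled shLuc replicate 2. Nothing is therefore read from a p of Pebp1 with that library kept or left out. Of all genes, 1 was called against the 5 libraries (0.00838%).

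Pebp1 was also set beside other transcripts of about its length. For the 908 tested genes of 1000 to 1400 nt, the median difference from shLuc replicate 1 was -0.10 in shEtnk1/2, where Pebp1 was at -0.13, and -0.11 in the Etn-deprived library, where Pebp1 was at -0.25. In shPcyt2 the median was 0.03 and Pebp1 was at 0.07. In shPebp1 and in the library labelled shLuc replicate 2 the same medians were -0.01 and -0.01, against -1.32 and -1.31 for Pebp1. Taken from the library labelled shLuc replicate 2, the medians were -0.10 in shEtnk1/2, 0.02 in shPcyt2 and -0.09 in the Etn-deprived library, where Pebp1 was at 1.18, 1.38 and 1.06. With the length trend removed from each library, Pebp1 differed from the shLuc mean by -0.66 in shPebp1 and 0.63 in shEtnk1/2. It differed by 0.70 in shPcyt2 and 0.51 in the Etn-deprived library. The library labelled shLuc replicate 2 then differed by -1.30 from replicate 1. Beyond these values, the part of transcript length in the Pebp1 levels was not tested.

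The difference between the libraries labelled shLuc is part of what Pebp1 was chosen for, and it is given as a description. Pebp1 was 1.31 log2 units lower in the library labelled shLuc replicate 2 than in replicate 1, a ratio of 0.402 (0.383 to 0.422). Among the 4633 tested genes with a mean of at least 1000 reads per library, no other lay as far apart, and Pebp1 was the only one at least 1 log2 unit lower (0.0216%). The median size of the difference over the other well-counted genes was 0.063 log2 units, and the 99th percentile was 0.313. Of all genes tested, 26 (0.218%) were at least 1 log2 unit lower. A further 33 tested genes were as far apart as Pebp1 in either direction, but 29 were small RNAs and their mean counts were at most 26.3 reads, against 4419 for Pebp1.

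Next after Pebp1 among well-counted genes came Skp1a, the adaptor of SCF ubiquitin ligases, with 84.1 RPKM in the library labelled shLuc replicate 2 and 132.7 RPKM in replicate 1 (-0.65). Lars2, the mitochondrial leucyl-tRNA synthetase, had 21.2 and 32.2 RPKM in the same order of libraries (-0.58), the receptor phosphatase Ptprj differed by -0.57 and 2610005L07Rik by -0.55. The largest differences the other way were 0.51 for the fatty acid-binding protein Fabp5, 0.46 for Sorcs2, 0.43 for the protease Adamts9, 0.42 for the smooth muscle gene Tagln and 0.42 for the secreted collagen-associated Cthrc1. Of these genes only Skp1a was also low in shPebp1 and in no other library, at 88.4 RPKM.

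**Figure D2:**
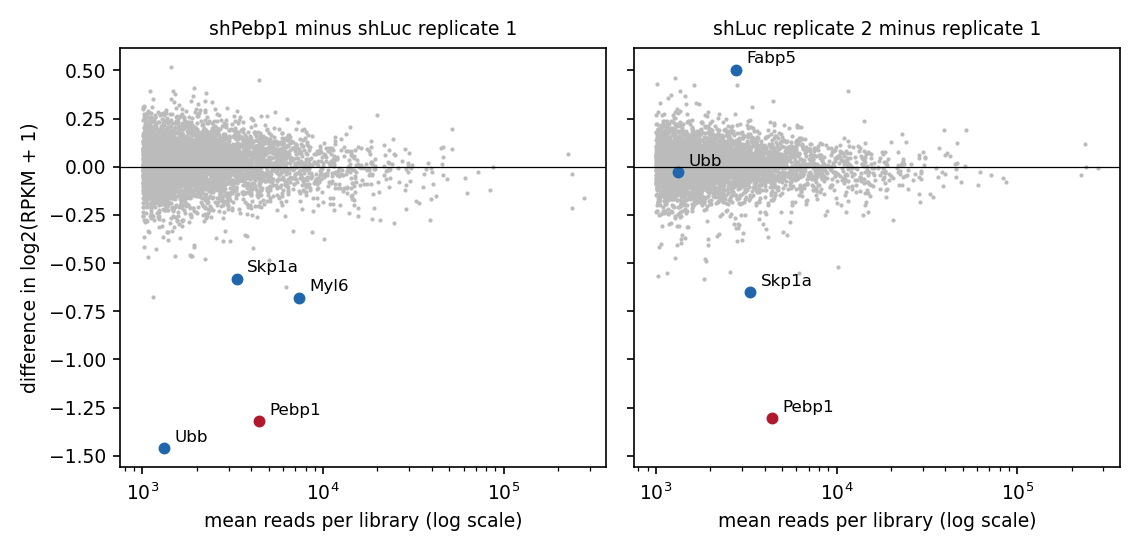
Difference in log2(RPKM + 1) against mean reads per library (log scale) for the 4633 well-counted genes, for shPebp1 minus shLuc replicate 1 (left) and for the library labelled shLuc replicate 2 minus replicate 1 (right). Pebp1 lies at -1.32 and -1.31 in the panels, while Ubb is at -1.46 on the left and at -0.03 on the right.

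In shPebp1 against shLuc replicate 1, 2 of the 4633 well-counted genes were at least 1 log2 unit lower (0.0432%), Ubb and Pebp1, and 38 of all genes tested (0.318%). Ubb, a polyubiquitin gene, had 24.8 RPKM in shPebp1, against 68.8 RPKM in the library labelled shLuc replicate 2 and 70.1 RPKM in replicate 1. It was called lower in shPebp1 (-1.45, SE 0.07, limma, adjusted p = 2.09e-05). Ubb repeats are nearly identical to those of other ubiquitin genes, so reads may have been shared among them. Among the other called genes that were not small RNAs, Myl6, a myosin light chain, had 459.3 RPKM in shPebp1 against 705.9 and 736.5 RPKM in the libraries labelled shLuc (-0.65, limma, adjusted p = 0.00124). Myl6 was lower still in the Etn-deprived library, at 317.1 RPKM. The test took its spread from the libraries labelled shLuc, so a called gene is one in which they lie close together. Against the 5 other libraries Ubb was the gene called (limma, adjusted p = 0.0475). With either library labelled shLuc left out, limma called 0 genes in both comparisons.

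Across the other genes, the library labelled shLuc replicate 2 stood close to both shPebp1 and shLuc replicate 1. The SD of log2 differences over the well-counted genes, with Pebp1 left out, was 0.0944 between shPebp1 and the library labelled shLuc replicate 2, the lowest of the 15 pairs. It was 0.102 between the libraries labelled shLuc, 0.104 between shPcyt2 and shLuc replicate 1 and 0.117 between shPebp1 and shLuc replicate 1, and the largest was 0.195, between shPebp1 and shEtnk1/2. Over all tested genes the lowest was again that of shPebp1 with the library labelled shLuc replicate 2 (0.189), while shLuc replicate 1 lay nearer to shPcyt2 (0.192) than to the library labelled shLuc replicate 2 (0.195). The median squared difference in reads was 4.26 times what counting noise gives for shPebp1 against the library labelled shLuc replicate 2, the lowest of the 15 pairs. It was 5.28 times for the libraries labelled shLuc. Every pair exceeded counting noise, so these values do not tell whether the libraries came from separate cultures. Each library was counted as a sample by its label.

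**Figure D3:**
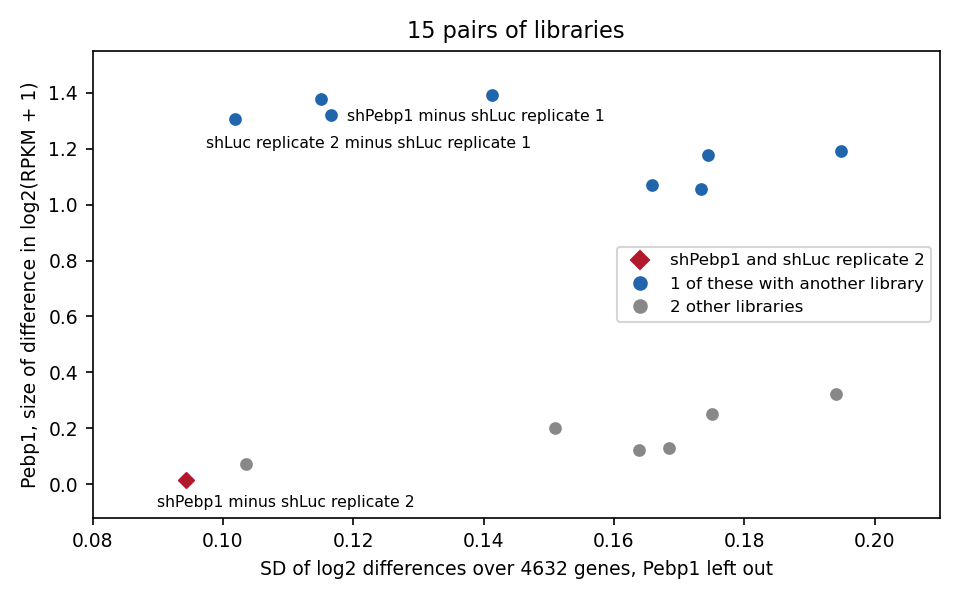
Size of the Pebp1 difference against the SD of the differences of all other well-counted genes, 1 point per pair of libraries. The 8 pairs that set shPebp1 or the library labelled shLuc replicate 2 against one of the other 4 libraries have Pebp1 differences of 1.06 to 1.39, and the other 7 pairs of 0.02 to 0.32.

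In size of difference Pebp1 ranked first among the 4633 well-counted genes in 5 of the 15 pairs, and each of these paired a low library with one of the high set. It was at rank 2 in shPebp1 minus shLuc replicate 1, and at rank 3 in both pairs of a low library with the Etn-deprived one. In the 7 remaining pairs its rank lay between 409 and 3949. These ranks follow from the level for which Pebp1 was chosen and are a description.

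Genes next to Pebp1 on chromosome 5 were read for comparison. The 4 nearest expressed genes on each side were Prkab1, Hspb8, Suds3 and Taok3 at lower coordinates and Vsig10, Wsb2, Rfc5 and Fbxo21 at higher ones. Taok3, a stress-activated kinase gene 7.55 kb away, had 12.4 RPKM in shPebp1, against 12.9 RPKM in the library labelled shLuc replicate 2 and 13.7 RPKM in replicate 1. Vsig10, 31.7 kb away, had 3.64 RPKM in shPebp1, against 3.86 and 4.15 RPKM in the libraries labelled shLuc in that order. Over the 8 genes the differences between the library labelled shLuc replicate 2 and replicate 1 ran between -0.17 and 0.10, and those of shPebp1 from shLuc between -0.11 and 0.09 (limma, adjusted p between 0.944 and 0.992), with 0 of 8 called where 0.101% of all genes were.

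The relatives of Pebp1 were scarce or followed another pattern. Pbp2 reached at most 0.161 RPKM and Pebp4 at most 0.0391 RPKM in any library. Mrpl38, a mitochondrial ribosomal protein with a domain of this family, had 27.4 RPKM in shPebp1, 22.7 in shEtnk1/2, 28.5 in shPcyt2, 17.9 in the Etn-deprived library, 25.7 in the library labelled shLuc replicate 2 and 26.1 in shLuc replicate 1. It fell in the Etn-deprived library (-0.51, SE 0.09, limma, adjusted p = 0.0112).

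The hairpins of the other libraries were compared with shLuc on their own targets. Etnk1 had 12.5 RPKM in shEtnk1/2, against 21.4 RPKM in the library labelled shLuc replicate 2 and 21.02 RPKM in replicate 1 (-0.71, limma, adjusted p = 0.00401). Pcyt2 had 29.9 RPKM in shPcyt2 against 40.05 and 42.03 RPKM (-0.44, limma, adjusted p = 0.16) and was not called. It had 33.5 RPKM in the Etn-deprived library (-0.29, limma, adjusted p = 0.0852). In both genes the libraries labelled shLuc lay close together, unlike in Pebp1. Etnk2 stayed under the filter, with at most 1.003 RPKM in any library and a mean of 26.5 reads. It had 0.333 RPKM in shEtnk1/2, against 1.003 RPKM in the library labelled shLuc replicate 2 and 0.457 RPKM in replicate 1. Fibroblast markers were expressed throughout, 14 of 14, with sums of 10530 RPKM in shPebp1 to 14400 RPKM in shEtnk1/2. Sums of the other marker lists ran from 62.3 to 90.4 RPKM for neural and glial cells, 47.7 to 62.8 for macrophages, 22.4 to 26.3 for endothelium, 2.34 to 6.09 for skeletal muscle and 2.71 to 4.32 for keratinocytes, with no such marker in the table at 0 in all libraries. The neural sum was highest and the macrophage sum lowest in shPebp1 (90.4 and 47.7 RPKM). They were 82.8 and 52.8 RPKM in the library labelled shLuc replicate 2 and 77.4 and 50.4 RPKM in replicate 1. Each rested mostly on a single gene, Stmn2 (53.8 RPKM in shPebp1) and Lyz2 (38.4 RPKM), as the endothelial sum did on Tek (22.2 RPKM). A mean of 1 RPKM was reached by 6 of 12 listed neural markers, 4 of them above 0 in shPebp1 minus shLuc. Among macrophage markers 3 of 9 reached it, 1 of them above 0. The part of these markers in the Pebp1 level was not tested.

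Genes with the pattern most like that of Pebp1 were sought among 432 genes with a mean of at least 500 reads and a range of at least 0.5 log2 units over the 6 libraries. Pearson's r with Pebp1 over these 6 libraries, which share their normalization and include the library that stood apart, is a description. It was highest for Snd1, a staphylococcal nuclease and Tudor domain protein (0.966), Skp1a (0.958), Pmaip1, the pro-apoptotic Noxa (0.956), Cmpk1, a nucleoside monophosphate kinase (0.941), Moxd1, a monooxygenase-like protein (0.909), and Egfl6, a secreted EGF-repeat protein (0.891). Of the 432 genes 5 reached 0.9, and none reached -0.9.

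In each of these 6 genes both low libraries lay below the other 4, as in Pebp1, but by less. These genes were picked by their r over the same libraries, so the shared low pair follows from the pick. Skp1a had 88.4 RPKM in shPebp1, 127.1 in shEtnk1/2, 133.6 in shPcyt2, 142.5 in the Etn-deprived library, 84.1 in the library labelled shLuc replicate 2 and 132.7 in shLuc replicate 1. Cmpk1 had 38.9 RPKM in shPebp1 and 38.5 RPKM in the library labelled shLuc replicate 2, against 54.1 to 60.7 RPKM in the others. Snd1 had 57.6 RPKM in shPebp1 and 63.8 RPKM in the library labelled shLuc replicate 2, against 80.99 to 82.9 RPKM in the others. The gap between the libraries labelled shLuc was -0.65 for Skp1a, -0.48 for Cmpk1, -0.34 for Snd1, -0.34 for Pmaip1, -0.37 for Moxd1 and -0.49 for Egfl6. The lowest correlations were those of Rnf152, a lysosomal ubiquitin ligase (-0.860), the nuclear receptor Nr2f2 (-0.844) and the microtubule-associated Map1b (-0.804). Rnf152 had 4.03 RPKM in shPebp1 and 4.10 RPKM in the library labelled shLuc replicate 2, against 2.97 RPKM in replicate 1.

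**Figure D4:**
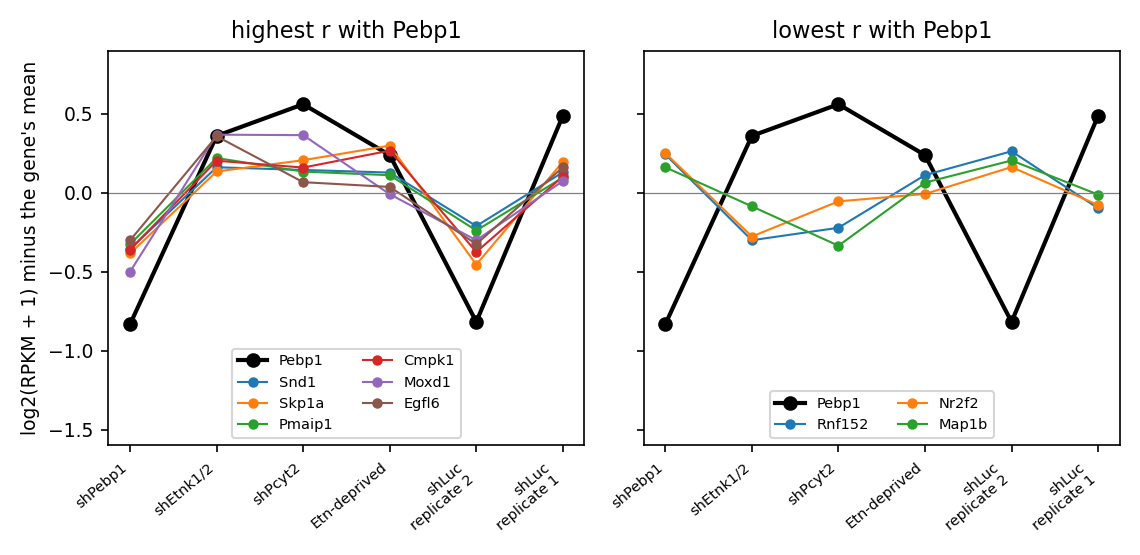
log2(RPKM + 1) minus each gene's mean over the 6 libraries for Pebp1 (black) with the 6 genes of highest r (left) and the 3 of lowest r (right). Lines join the 6 values of a gene, and shPebp1 and the library labelled shLuc replicate 2 lie below the other libraries in all 7 curves on the left, by far the most in Pebp1.

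The partners and pathways of Pebp1 were then read from 10 gene lists. Over the 121 members tested, limma called 0 in shPebp1 against shLuc, against 0.101% of all genes tested. At an unadjusted p under 0.05 there were 7 (5.79%), where all genes gave 5.85%. Limma-voom called 0 of the members and 13 of all genes. Leaving out either library labelled shLuc tells nothing about the members, because no gene at all passed there. The median difference of all tested genes was 0.01, and 6333 of the 11939 were above 0 in shPebp1 minus shLuc.

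Of the kinase cascade that Pebp1 is known to restrain, 10 of 16 genes were above 0 in shPebp1, with a median of 0.04 and values from -0.06 (Araf) to 0.15 (Nras). Ksr1, a scaffold of the cascade, was at 0.11. Transcripts that ERK signalling is known to induce had a median of -0.06, with 8 of 20 above 0. The phosphatase Dusp6, a feedback inhibitor of ERK, had 11.2 RPKM in shPebp1 against 9.36 and 10.3 RPKM (0.17, limma, adjusted p = 0.92). Ier3 had 11.4 RPKM against 14.4 and 14.4 RPKM (-0.32, limma, adjusted p = 0.6), the receptor gene Epha2 was at -0.31 and Myc at -0.26, and none passed the test. In shEtnk1/2 the ERK-induced factor gene Etv5 fell to 13.2 RPKM, against 18.9 and 19.8 RPKM in the libraries labelled shLuc (-0.52, limma, adjusted p = 0.0197).

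Genes of the NF-kB kinases, subunits and inhibitors had a median of 0.03 in shPebp1, with 12 of 19 above 0 and values from -0.18 (Tab3, a TAK1 partner, and the subunit gene Rel) to 0.18 (Nfkbie, an inhibitor). Map3k7, which encodes the kinase TAK1 that Pebp1 is known to bind, was at 0.13, and Map3k14, which encodes NIK, at -0.05. NF-kB target genes had a median of 0.02, with 6 of 12 above 0. The chemokine Cxcl10 stood out in size, with 1.56 RPKM in shPebp1, against 0.370 RPKM in the library labelled shLuc replicate 2 and 0.316 RPKM in replicate 1 (0.93, SE 0.21, limma, adjusted p = 0.323). Cxcl5 had 3.28 RPKM against 1.84 and 1.35 RPKM (0.73, limma, adjusted p = 0.454), and neither passed. Cxcl10 was also above both libraries labelled shLuc in shEtnk1/2, where it was called (2.02 RPKM, difference 1.17, limma, adjusted p = 0.0198). The same held, without a call, in the Etn-deprived library (1.17 RPKM, difference 0.70) and in shPcyt2 (0.892 RPKM, difference 0.49). Its mean count was 22.3 reads per library. Tnfaip3, an inhibitor of the pathway, was at -0.27 (limma, adjusted p = 0.917). Another chemokine gene, Ccl7, had 38.3 RPKM in shPebp1 against 38.2 and 42.8 RPKM, and rose in shEtnk1/2 (0.37, limma, adjusted p = 0.0495) and in the Etn-deprived library (0.55, limma, adjusted p = 0.00951).

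GRK2, receptor and protein kinase C genes had a median of -0.02 in shPebp1, with 4 of 10 above 0. Adrbk1, the gene of GRK2, had 20.4 RPKM in shPebp1 against 19.3 and 20.2 RPKM in the libraries labelled shLuc, and Prkcd was at -0.18 (limma, adjusted p = 0.868) and Grk6 at 0.09. Prkcb, a protein kinase C gene, fell in shEtnk1/2 (5.48 RPKM, against 9.23 and 10.3 RPKM; -0.73, limma, adjusted p = 0.0118). Ferroptosis genes had a median of 0.02, with 6 of 9 above 0. Gpx4, which removes lipid peroxides, had 80.7 RPKM in shPebp1 against 80.8 and 79.1 RPKM, and Alox15, the lipoxygenase that Pebp1 binds, reached at most 0.0632 RPKM in any library. Aifm2, a suppressor of ferroptosis, was at 0.14, the ferritin gene Fth1 at 0.10 and the cystine transporter subunit gene Slc3a2 at -0.08. In the Etn-deprived library the ferritin gene Ftl1 fell to 1758 RPKM, against 2255 and 2163 RPKM in the libraries labelled shLuc (-0.33, limma, adjusted p = 0.0108).

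Genes that make phosphatidylethanolamine, the lipid Pebp1 binds, had a median of 0.04 in shPebp1, with 5 of 8 above 0. Pemt, which turns phosphatidylethanolamine into phosphatidylcholine, lay below both libraries labelled shLuc, with 1.35 RPKM against 2.46 and 2.21 RPKM (-0.51, limma, adjusted p = 0.711). Ptdss1, a phosphatidylserine synthase gene, was at 0.12 and Pcyt2 at -0.10. LC3 genes and those that attach LC3 to phosphatidylethanolamine had a median of 0.03, with 7 of 12 above 0, and Atg5 was at 0.24 (limma, adjusted p = 0.785), Map1lc3a at -0.16 and Gabarapl1 at -0.14. Factors and cadherins of the epithelial-mesenchymal transition had a median of 0.02, with 6 of 11 above 0. Zeb2, a transcriptional repressor of E-cadherin, had 18.6 RPKM in shPebp1 against 15.4 and 14.8 RPKM (0.28, limma, adjusted p = 0.678), and the factor gene Twist2 was at 0.16. Cdh1, the gene of E-cadherin, had 10.98 RPKM in shPebp1 against 9.35 and 10.9 RPKM (0.11), and fell in shEtnk1/2 to 6.04 RPKM (-0.65, limma, adjusted p = 0.0215).

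Snai1, whose product is reported to repress PEBP1 in human cancer cells, had 7.14 RPKM in shPebp1, against 10.6 RPKM in the library labelled shLuc replicate 2 and 7.91 RPKM in replicate 1. It was not called in shPebp1 (-0.32, limma, adjusted p = 0.892), and its part in the Pebp1 level was not tested. Ezh2, also reported as a repressor in human cells, had 36.1 RPKM against 33.1 and 32.6 RPKM (0.13, limma, adjusted p = 0.914). Hmga2 and Bach1, let-7 targets linked to Pebp1 in human breast cancer cells, were at -0.16 and 0.09, and the list had a median of 0.00 with 3 of 5 above 0.

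**Figure D5:**
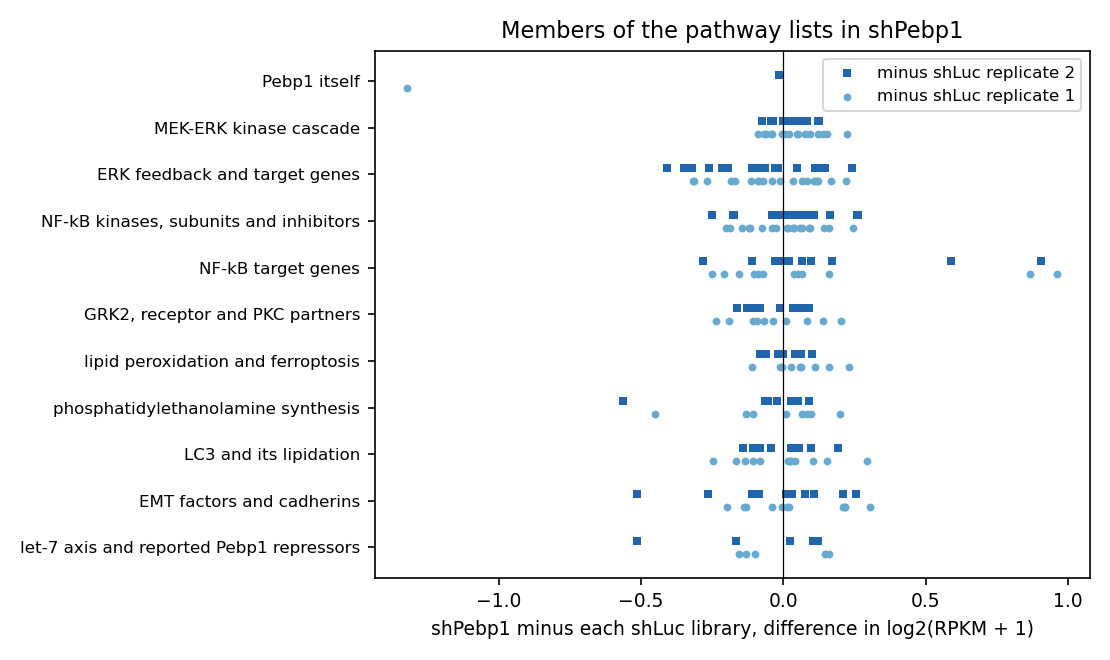
Difference in log2(RPKM + 1) of shPebp1 from each library labelled shLuc for the tested members of 10 lists, with Pebp1 on top; squares are differences from the library labelled shLuc replicate 2 and circles from replicate 1. Pebp1 is at -0.02 and -1.32, while most members lie close to 0 against both, with Cxcl10 furthest to the right at 0.90 and 0.96.

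Since Pebp1 had a ratio of 0.989 between shPebp1 and the library labelled shLuc replicate 2, the lists were also read against each library labelled shLuc. Against that library the medians were 0.04 for the kinase cascade, -0.08 for ERK-induced genes and 0.01 for NF-kB targets. Against replicate 1, with Pebp1 at 39.8%, they were 0.03, -0.03 and -0.02 in the same order. The library labelled shLuc replicate 2 minus replicate 1 gave 0.00, 0.02 and -0.00. Over all tested genes these 3 differences had medians of 0.01, 0.01 and 0.00.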

How the data were processed

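Poly(A) RNA was sequenced as 2 x 100 paired ends, per the labels' protocols. The authors deposited RPKM values. The submitters' processing notes list Bowtie 0.12.2 and the build mm10. Which gene models, counting program, strand setting and filters were used is not stated there. Every value column belonged to a library.

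Values of all 18303 lines stood in ratios of whole reads, within 1e-05 of a whole number plus 5e-09 per read, so reads and transcript lengths were recovered. The libraries held 18547109 to 20107151 recovered reads. Whether these are reads or pairs is unknown. A gene listed on 2 lines, of which there were 2, was kept once, on the line with the higher mean.

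The scale was log2(RPKM + 1), on which changes of low genes come out too small. Models were fitted with limma 3.58.1 (R 4.3.3), trended and robust, two-sided, with Benjamini-Hochberg adjustment over all 11939 genes whose mean reached 1 RPKM. The model had 5 group means. Its single residual degree of freedom came from the shLuc pair, and the treated libraries took their spread from it. The prior degrees of freedom were 9.24 at the median over genes and 0.184 for Pebp1. A second model set shPebp1 against the other 5 libraries, with 4 residual degrees of freedom. Leaving out a shLuc library took the spread from the pathway libraries. In both cases the libraries that gave the spread differ in treatment, so it holds treatment effects too. Intervals are 95% Poisson, or exact binomial for ratios. Both scripts that fit or recover values were tested on simulated data.

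Named genes were Pebp1, its family, the targeted genes, its chromosomal neighbours, the genes most like it, the genes furthest apart between the shLuc libraries, the called genes that were not small RNAs, and per list the called members and those with the largest differences in shPebp1; further list members were named for their known link to Pebp1. Myc was named as 1 of the 7 list members with an unadjusted p under 0.05. Some genes that this choice would name are not reported here. The gene, the lists and the tests were chosen with earlier results of these data known. Transcript sequences and exons are from GENCODE (GRCm38). Alternatives were another pseudocount, other filters, scalings, a length correction, limma-voom on the recovered reads and leaving out each shLuc library.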

Additional observations from a re-analysis of the deposited data

How the results depend on the processing

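Pebp1 in the library labelled shLuc replicate 2 minus replicate 1 lay between -1.31 and -1.30 under 5 alternatives. Limma-voom on the recovered reads was the one alternative with all libraries in which Pebp1 passed against shLuc, at -0.68 in shPebp1 (adjusted p = 3.13e-11), 0.53 in shEtnk1/2 (4.01e-09), 0.73 in shPcyt2 (4.59e-17) and 0.40 in the Etn-deprived library (5.94e-05). Its prior degrees of freedom were infinite, so the distance between the libraries labelled shLuc in Pebp1 carried no weight there. Leaving out each library labelled shLuc gave Pebp1 values of -1.32 to -0.02 in shPebp1 and -0.13 to 1.18 in shEtnk1/2. They were 0.0725 to 1.38 in shPcyt2 and -0.25 to 1.06 in the Etn-deprived library. The range was -1.24 to -0.92 against the 5 libraries. Each range gives the fit without replicate 2 first and the fit without replicate 1 second. Pebp1 was chosen for its level in the library labelled replicate 2, so these fits are given as differences without a p. The 12 genes called in shPebp1 were 7 with the length trend removed, 0 with no filter on low values and 0 with either library labelled shLuc left out, and 10 to 16 otherwise; at an unadjusted p under 0.05 there were 698. Against the 5 libraries the 1 gene called became 3 with a pseudocount of 0.1, 30 with no filter, 0 with quantile normalization, 0 with the length trend removed and 0 with either library labelled shLuc left out (365 at an unadjusted p under 0.05). No paired analysis was possible because the treated groups hold 1 library each. With 1 library per treated group and 2 libraries labelled shLuc that disagree on Pebp1, the Pebp1 level in shPebp1 has no replicate check.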
